A study of Mus musculus with 25 samples.

Results

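The 8 genes described here encode enzymes of the methionine cycle and of folate-dependent one-carbon metabolism: Mat2a, Mat2b, Ahcy, Mtr, Mtap, Amd1, Shmt1 and Mthfd1. They were taken by symbol from a count table of 48440 mouse genes, and all 8 passed the filters on low counts of every comparison. They were selected on these data: the level of Mat2a, more than 2-fold higher in every mutant clone than in any unedited library, chose the group. That difference is therefore given as a description, without a test.

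RNA came from E14 cells, a line of mouse embryonic stem (ES) cells cultured without feeders, in medium with serum and leukemia inhibitory factor. The 10 unedited libraries were from cells kept for 48 h in 0, 2.5, 5, 7.5 or 10 µM CHIR99021, an inhibitor of the kinase GSK3β, which marks β-catenin for destruction, with 2 libraries per dose. The other 15 libraries were from clones without CHIR99021, 1 library per clone, each heterozygous for a missense mutation of codon 37, 41 or 45 of Ctnnb1, the gene for β-catenin. Together they covered 11 mutations, of which S37F, S45F, T41A and T41I had 2 clones each. To make them, part of 1 Ctnnb1 allele was replaced by a selection cassette and then by a donor template with the mutation, and single colonies were expanded, so genotype and derivation cannot be told apart when clones are set against unedited cells. The clones fell into 3 categories of mutation effect score (MES, a reporter-based measure of β-catenin signaling). The low category held S45C clone D3, T41N clone D3 and T41S clone H8, and the medium category held S45P clone G5 and both S45F clones, C1 and D9. The high category held the T41I clones A6 and B9, the T41A clones C1 and E6, S37Y clone A5, the S37F clones G1 and H2, S37C clone G12 and S37A clone A10. The study drew these categories by clustering the same libraries, so tests between them are not independent of gene expression.

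Libraries held 306157 to 2083398 counts of unique molecules, read at transcript 3′ ends. Levels are in CPM, the gene's counts scaled to a fixed total in each library, and a count of 0 would allow up to 1.44 to 9.80 CPM (3 counts) by library. Mitochondrial transcripts took 1.53% to 2.52% of counts in the clones and 0.485% to 1.46% in unedited libraries. Of the ES cell markers, Nanog, Sox2, Zfp42, Dppa5a and Utf1 were well detected while Pou5f1 was low, and the summed level of the 6 markers ran from 1380 to 3230 CPM in clones and from 1540 to 2700 CPM in unedited cells. T41S clone H8 stood apart, with the lowest ES cell sum and the highest trophoblast (1810 CPM), neural (223 CPM) and fibroblast (162 CPM) sums among the clones. A single gene made up most of each of these trophoblast, neural and fibroblast sums: Krt8 (1740 CPM), Nes (127 CPM) and Col1a1 (126 CPM). In bulk RNA, fewer cells of a type and less RNA per cell cannot be told apart.

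The methionine cycle turns methionine into S-adenosylmethionine, the methyl donor for DNA, RNA and histone methylation. The spent product is cleaved to homocysteine, which receives a methyl group from folate to become methionine again. Folate in turn receives carbon units from serine and glycine, and a branch of the cycle makes polyamines and salvages the methionine used for them. Mouse ES cells are known for a high demand for threonine to keep up S-adenosylmethionine.

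Mat2a encodes the catalytic subunit of the methionine adenosyltransferase used outside the liver, and lies at chr6:72432799-72439558 (GRCm38, minus strand). The 3′ untranslated region of its messenger RNA is known to bear hairpins that the RNA methyltransferase METTL16 recognizes by a 9-base sequence. METTL16 at these hairpins is known to couple splicing and stability of the Mat2a transcript to the supply of S-adenosylmethionine. The hairpin letters, TACAGAGAA or TACAGAAAA on the transcript strand, occurred 6 times in the 1497-base 3′ untranslated region of Mat2a. They are shown because no other of the 8 genes held either sequence in its transcript, with capitals for the 9 bases and lower case for 10 bases on each side.
Site 1, chr6:72434235-72434263: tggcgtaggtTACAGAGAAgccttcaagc
Site 2, chr6:72433451-72433479: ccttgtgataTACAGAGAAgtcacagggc
Site 3, chr6:72433272-72433300: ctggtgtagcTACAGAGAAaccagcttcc
Site 4, chr6:72433157-72433185: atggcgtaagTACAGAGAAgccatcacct
Site 5, chr6:72433046-72433074: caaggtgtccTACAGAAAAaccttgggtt
Site 6, chr6:72432938-72432966: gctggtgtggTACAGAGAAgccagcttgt
All 6 lie on the minus strand of GRCm38 (GENCODE M21), and 5 of them had the first form. Of 21901 protein-coding genes, each read by 1 transcript, 1383 (6.31%) held at least 1 such sequence, and Mat2a was the 1 gene with as many as 6. The match is by letters alone and was not weighted for transcript length, which was 2804 bases for Mat2a against a median of 2266.

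Promoter windows of 250 bases before to 50 bases after the annotated start were read from RefSeq (GRCm38.p6) for all 8 genes. The windows of Mat2a, Shmt1 and Mtap are printed 5′ to 3′ because the results below turn on these genes. Capitals mark the letters of a TATA box (TATAAA), of a CCAAT box and of a GC box (GGGCGG) on either strand.
Mat2a, chr6:72439507-72439806, minus strand: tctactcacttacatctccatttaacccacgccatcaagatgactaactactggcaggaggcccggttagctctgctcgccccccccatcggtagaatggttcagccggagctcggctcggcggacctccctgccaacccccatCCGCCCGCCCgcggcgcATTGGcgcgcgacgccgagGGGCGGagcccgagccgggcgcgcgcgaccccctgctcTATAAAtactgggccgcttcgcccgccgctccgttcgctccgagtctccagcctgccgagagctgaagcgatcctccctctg
Shmt1, chr11:60811216-60811515, minus strand: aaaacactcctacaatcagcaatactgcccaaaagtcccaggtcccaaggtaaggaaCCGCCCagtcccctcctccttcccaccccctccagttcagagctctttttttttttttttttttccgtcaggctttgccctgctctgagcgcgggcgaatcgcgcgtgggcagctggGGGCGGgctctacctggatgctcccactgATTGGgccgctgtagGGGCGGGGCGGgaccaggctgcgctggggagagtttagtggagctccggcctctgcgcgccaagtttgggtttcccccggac
Mtap, chr4:89137120-89137419, plus strand: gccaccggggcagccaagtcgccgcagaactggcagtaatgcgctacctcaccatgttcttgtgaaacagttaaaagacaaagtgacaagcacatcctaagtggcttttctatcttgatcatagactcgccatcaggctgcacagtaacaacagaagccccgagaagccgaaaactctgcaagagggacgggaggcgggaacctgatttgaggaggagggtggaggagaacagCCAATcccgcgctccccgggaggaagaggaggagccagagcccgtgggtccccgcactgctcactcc
The letters CCAAT were found in 7 of the 8 windows and in 37.4% of 32851 promoter windows. The letters GGGCGG were likewise found in 7 of the 8 and in 35.7% of all windows. TATAAA was found in the Mat2a window alone of the 8, starting 32 bases before the start site, and in 13.6% of all windows. Both strands were searched, and GC-rich matches in Mat2a and Shmt1 overlap each other. The letters CACGTG (E-box, 7.15% of all windows), CTTTGAT (TCF/LEF, 3.73%) and TGATGNAA (ATF4, 3.97%) were in none of the 8 windows, which says only that these letters are not in these windows.

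The first comparison set the clones against unedited cells. Mat2a was at 57.1 and 46.8 CPM without CHIR99021, 37.4 and 51.8 at 2.5 µM, 41.1 and 57.6 at 5 µM, 53.7 and 54.2 at 7.5 µM, and 39.2 and 65.5 at 10 µM. In low clones it was at 425 CPM in S45C, 416 in T41N and 286 in T41S, and in medium clones at 268 and 443 CPM in S45F clones C1 and D9 and 301 in S45P. In high clones it was at 327 CPM in S37A, 326 in S37C, 266 and 173 in S37F clones G1 and H2, 346 in S37Y, 416 and 439 in T41A clones C1 and E6, and 276 and 457 in T41I clones A6 and B9. The groups did not overlap, and even the lowest clone, S37F H2 (Wilson 95% counting interval 155 to 193 CPM), was 2.64-fold above the highest unedited library. The medians were 327 and 52.8 CPM, a ratio of 6.19, and all 15 clones shared the direction. On the log2 (CPM + 1) scale the ratio of medians was 2.61, and 2.63 against the 2 untreated unedited libraries alone. Among the unedited libraries, Mat2a was at 37.4 to 46.8 CPM where the mitochondrial share was under 0.8%, and at 51.8 to 65.5 CPM elsewhere. The libraries under 0.8% also held the fewest counts, and the part of either in these levels was not tested.

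**Figure D1:**
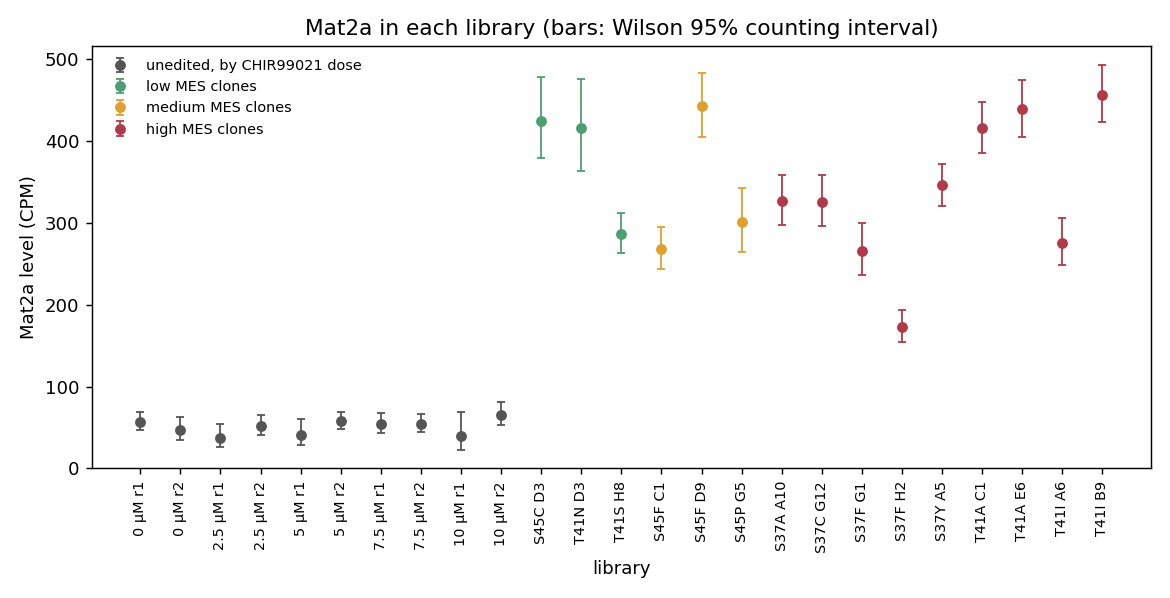
Mat2a level (CPM, y axis) in each of the 25 libraries (x axis), with Wilson 95% counting intervals as bars and color for unedited cells and MES category. The 10 unedited libraries sit between 37.4 and 65.5 CPM and the 15 clones between 173 and 457 CPM.

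Only 4 of 9842 genes with enough counts (0.0406%) had their lowest clone more than 2-fold above the highest unedited library, and Mat2a ranked first. The others were Zfp936, a zinc finger gene (2.41), Sfpq, which encodes a splicing factor (2.36), and Myc, a growth-promoting transcription factor (2.36). The next gene, Dhx9, was at 1.85. These ratios express the criterion by which Mat2a was chosen.

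The other 7 enzymes differed less. Shmt1, which loads folate with a carbon unit from serine in the cytosol, had medians of 224 CPM in clones and 132 CPM in unedited cells (ratio 1.70). Mthfd1, which interconverts the folate forms that carry these units, had medians of 461 and 293 CPM (ratio 1.57). In both genes 14 of the 15 clones were above every unedited library, and the exception was T41S clone H8, at 119 CPM for Shmt1 and 311 CPM for Mthfd1. Without that clone, both genes joined Mat2a in lying wholly above the unedited libraries.

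Mat2b, which encodes the regulatory subunit that partners MAT2A, had medians of 108 and 72.5 CPM, with 12 clones above every unedited library. Against the untreated libraries alone its log2 ratio was 0.29 in place of 0.57. Amd1, whose enzyme decarboxylates S-adenosylmethionine for polyamine synthesis, had medians of 46.4 and 33.1 CPM, also with 12 clones above. Amd1 has close copies, of which Amd2 held 244 counts over all libraries, so its counts are less certain. Mtr, methionine synthase, which joins the folate and methionine cycles, was near the counting limit, with medians of 13.4 and 8.33 CPM and 2 clones above. Ahcy, which cleaves S-adenosylhomocysteine, had medians of 65.5 and 52.2 CPM with 5 clones above. Mtap, which salvages methionine from the by-product of polyamine synthesis, had medians of 78.0 and 75.6 CPM with 4 clones above, and its ratio lay below 1 with TMM-scaled libraries (log2 ratio −0.04). Thus of the 8 genes only Mat2a lay wholly above, which its selection had fixed in advance. The other 7 all overlapped, beside 7.76% of all 9842 genes without overlap (4.67% above and 3.09% below). The median log2 ratio was 0.595 over the 8 genes, Mat2a included, and 0.052 over all genes. Without Mat2a the middle value was that of Mat2b, 0.567.

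**Figure D2:**
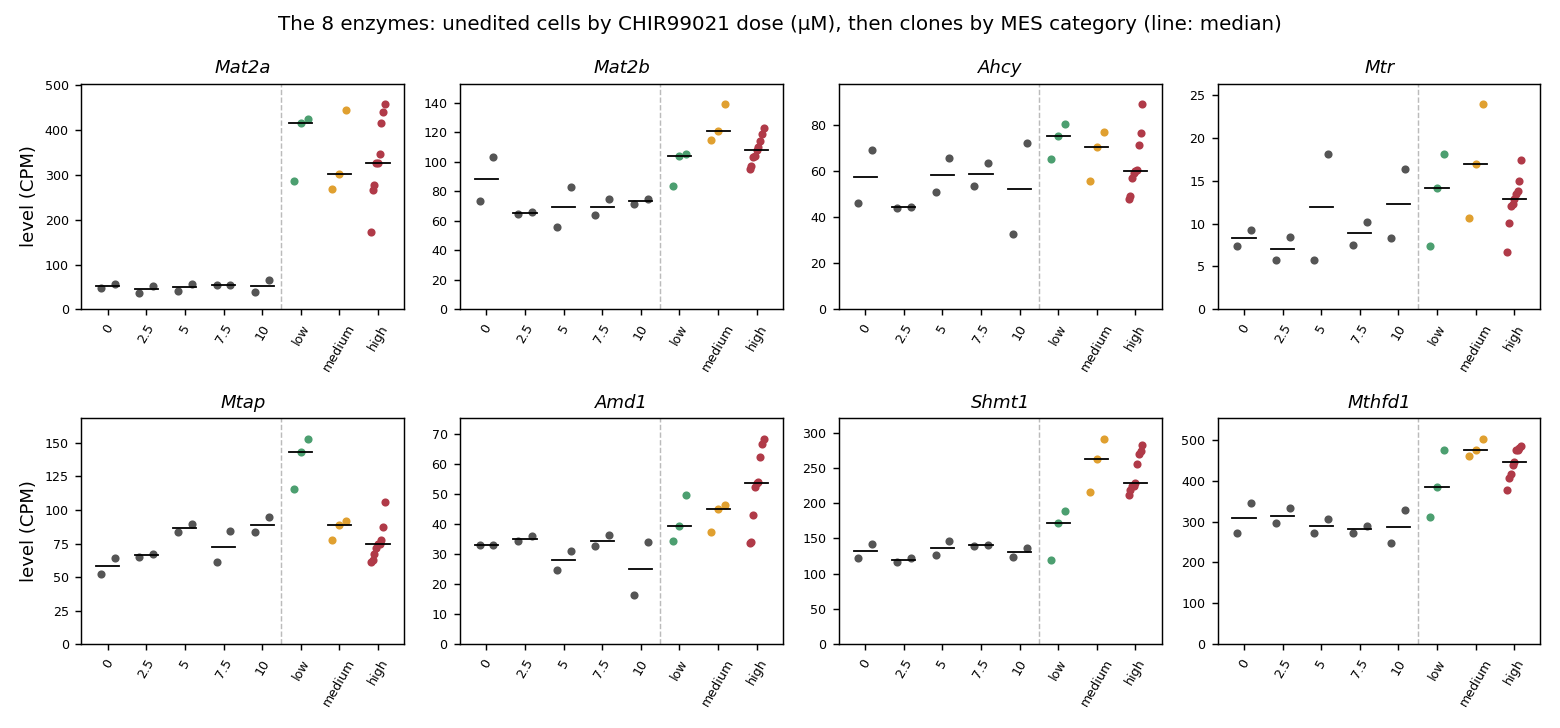
Level (CPM, y axis of each panel, from 0) of the 8 enzymes in unedited cells by CHIR99021 dose in µM and in clones by MES category (x axis), with 1 point per library and a line at each median. Mat2a separates clones from unedited cells. Among the clone categories, the median is lowest for Shmt1 and highest for Mtap in the low clones.

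Clones that shared a mutation differed in Mat2a by a factor of 1.54 for S37F, 1.65 for S45F, 1.05 for T41A and 1.65 for T41I. For Shmt1 the same pairs differed by 1.03 to 1.22 and for Mthfd1 by 1.05 to 1.26. The widest such gap among the 8 genes was in Amd1 between T41I clones A6 and B9 (34.1 and 66.8 CPM, a factor of 1.96). With 2 clones per mutation these gaps carry no test.

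The other genes of the pathway, 64 in 5 lists, were described in the same way. In the list for the methionine cycle and transsulfuration, 3 of the 11 genes compared lay wholly above in the clones and none below. The shares over all 9842 genes were 4.67% above and 3.09% below. These 3 were Cth, an enzyme of transsulfuration, and Ythdc1 and Mettl16, whose proteins act on RNA and are not enzymes of the cycle. In the polyamine and salvage list 3 of 14 lay wholly above. In the folate cycle it was 1 of 17 and in the supply of serine, glycine and threonine 1 of 10, again with none below. In the list for vitamin B12 handling, 1 of 6 lay wholly below. Among the pathway genes whose groups did not overlap, the largest ratios were those of Cth, which makes cysteine from cystathionine (119 and 40.3 CPM), Odc1, the entry enzyme of polyamine synthesis (53.2 and 25.4 CPM), and Srm, spermidine synthase (882 and 435 CPM). For Cth and Srm the log2 ratios of 1.53 and 1.02 shrank to 1.11 and 0.40 against the untreated libraries alone. Ythdc1, a nuclear reader of methylated adenosine, had medians of 86.0 and 44.6 CPM, and Tcn2, a carrier of vitamin B12, lay below at 21.6 and 43.3 CPM. Mettl16, named here after its values were seen because its protein reads the sites in Mat2a, ran from 81.9 to 142 CPM in clones and from 55.7 to 81.5 CPM in unedited cells, so its groups were separated by less than 1 CPM.

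**Figure D3:**
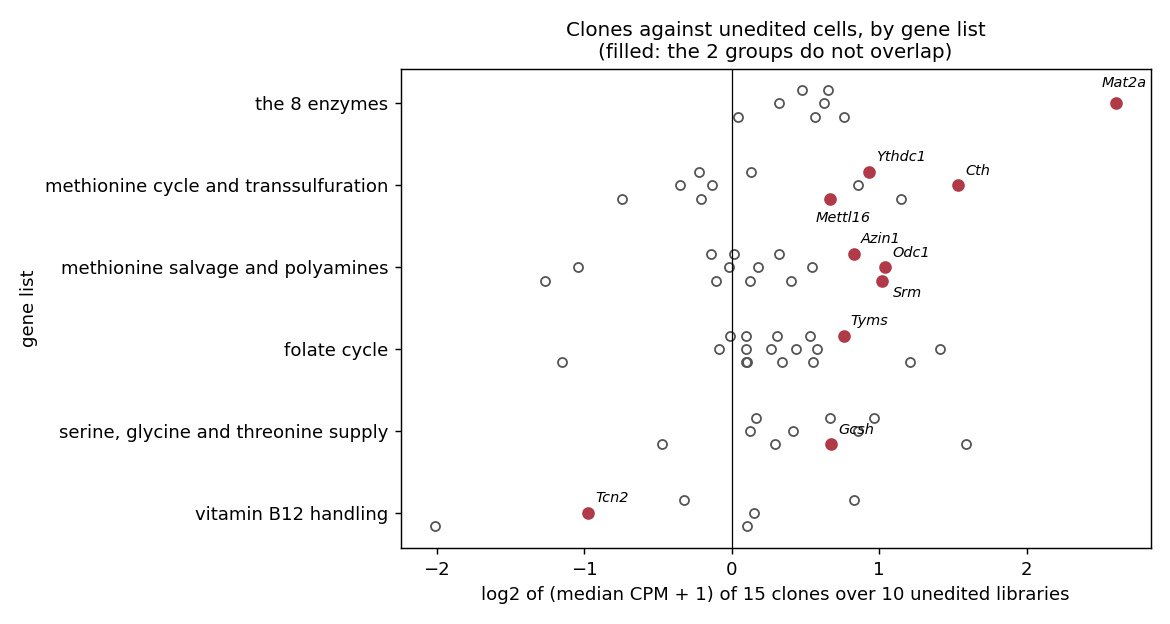
Log2 ratio of median CPM + 1, clones over unedited cells (x axis), for each gene compared in the 8 enzymes and the 5 pathway lists (y axis). Filled points are genes whose groups do not overlap, and Mat2a, at 2.61, lies farther right than any gene of the lists.

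The dose series asked whether the enzymes followed CHIR99021 in unedited cells. None of the 8 passed the threshold (edgeR quasi-likelihood test, adjusted p under 0.05), beside 12.5% of 10033 genes (5.89% higher and 6.63% lower with dose), and 1 of the 8 had an unadjusted p under 0.05. DESeq2 also called none. Mat2a changed by 0.18 on the log2 scale per 10 µM (SE 0.19, 95% interval −0.21 to 0.58, adjusted p = 0.608). Mtap came closest to the threshold (0.49, SE 0.19, adjusted p = 0.0874), from 64.1 and 52.1 CPM without CHIR99021 to 94.7 and 83.6 CPM at 10 µM. It passed when the first 7.5 µM library was left out (0.60, adjusted p = 0.0333; range over 16 alternatives 0.0333 to 0.277). For the other 6 genes the adjusted p was 0.345 to 0.911.

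Of the 64 pathway genes, 56 were tested against dose, of which 4 rose and 7 fell (19.6%, beside 12.5% of all genes). Tdh, which feeds glycine from threonine, rose by 0.78 on the log2 scale per 10 µM (SE 0.15, adjusted p = 0.000525). Folr1, a folate receptor, fell by 1.36 (SE 0.23, adjusted p = 9.18e-05), and both calls held under every alternative. Dmgdh, of choline breakdown, and Smox, a spermine oxidase, also rose (1.98 and 0.91), while Mthfs, of folate interconversion, and Mri1, of methionine salvage, also fell (−1.34 and −0.92). Without the first untreated library, Dmgdh, Smox, Mthfs and Mri1 lost their calls (adjusted p = 0.0651, 0.156, 0.202 and 0.148, each the highest of 16 alternatives), and 1 pathway gene rose and 3 fell. Without the second untreated library Mthfs was lost and 3 genes fell, and without the second 7.5 µM library Smox was lost and 2 genes rose. Mthfs was also lost with DESeq2, and both genes were lost in 10 against 0 µM. Of the 6 ES cell markers 5 fell with dose, and of the 3 mesendoderm markers tested, of 6 listed, T and Mixl1 rose. Of the 3 trophoblast markers tested, of 6 listed, Krt8 and Gata3 rose (1.28 and 1.68) and Tfap2c fell (−0.90). The part of these markers' cells in the values of the enzymes was not tested.

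Between the MES categories, Shmt1 and Mtap were the enzymes that differed. Of the 8 genes, 1 was higher and 1 lower in high than in low clones, beside 29.8% of 10452 genes (13.1% higher and 16.6% lower). Shmt1 was at 189, 172 and 119 CPM in the low clones S45C, T41N and T41S. In the 9 high clones it was at 212 to 282 CPM (median 228). It was higher in high clones by 0.65 on the log2 scale (SE 0.15, edgeR adjusted p = 0.00179; range over 20 alternatives 4.38e-05 to 0.0513). Without T41S clone H8 the difference was 0.46 (adjusted p = 0.0513). Mtap was at 116, 153 and 143 CPM in the same low clones and at 61.4 to 106 CPM in the high clones (median 74.4). It was lower by 0.85 in high clones (log2 change −0.85, SE 0.14, adjusted p = 0.000108), and this call held in all 20 alternatives.

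Medium clones differed from low clones in the same 2 enzymes, beside 11% of all genes (3.66% higher and 7.29% lower). Shmt1 was at 216 and 262 CPM in S45F clones C1 and D9 and 291 CPM in S45P, higher than in low clones by 0.68 (SE 0.17, adjusted p = 0.0116). Mtap was at 91.6, 78.0 and 89.2 CPM in these clones (log2 change −0.70, SE 0.18, adjusted p = 0.0146). Without T41S clone H8 neither call held (adjusted p = 0.144 and 0.133), and the Mtap call was also lost without T41N (0.0564) or S45F clone D9 (0.0884). Over the 19 alternatives the adjusted p ran from 0.00108 to 0.144 for Shmt1 and from 0.00899 to 0.133 for Mtap. High and medium clones differed in none of the 8 genes, with edgeR or DESeq2 and with no unadjusted p under 0.05, beside 4.51% of all genes (2.13% higher and 2.37% lower). The low clones also had higher trophoblast sums (573 to 1810 CPM, against 100 to 215 CPM in high clones), neural sums (141 to 223 against 23.1 to 93.9 CPM) and fibroblast sums (43.7 to 162 against 3.88 to 27.7 CPM). Krt8 held most of the trophoblast sums, at 505 to 1740 CPM in low and 78.5 to 198 CPM in high clones. Of the same list, Cdx2 reached 2.26 CPM in low and 2.47 CPM in high clones, and Elf5 reached 0 and 1.49 CPM. All 3 trophoblast and all 4 neural markers tested, each of a list of 6, were lower in high clones, as was Col1a1, the 1 fibroblast marker tested of 6 (−4.21, SE 0.42, adjusted p = 1.08e-07), and 3 of 6 ES cell markers were higher. Primitive endoderm markers went the other way: of 5 tested, of 6 listed, 1 was higher in high clones and none lower. Their sums were 6.98 to 244 CPM in high clones, highest in S37Y clone A5, and 22.6 to 47.4 CPM in low clones. Of the 2 mesendoderm markers tested, of 6 listed, none differed. The part of these markers' cells in the Shmt1 and Mtap values was not tested.

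Mat2a did not differ detectably between the categories. The change was −0.14 from low to high clones (SE 0.21, 95% interval −0.58 to 0.31, adjusted p = 0.678) and −0.16 from low to medium clones (SE 0.26, 95% interval −0.70 to 0.38, adjusted p = 0.757). Between medium and high clones it was 0.03 (SE 0.21, 95% interval −0.41 to 0.46, adjusted p = 0.962). The medians were 416, 301 and 327 CPM in low, medium and high clones, and the ranges of all 3 overlapped. Mthfd1 passed the threshold only when S45C clone D3 was left out, for high against low (0.37, adjusted p = 0.0304) and for medium against low clones (0.46, adjusted p = 0.0358). Its adjusted p ran over the alternatives from 0.0304 to 0.77 and from 0.0358 to 0.632. Mat2b, Ahcy, Mtr and Amd1 passed the threshold in no comparison between categories.

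**Figure D4:**
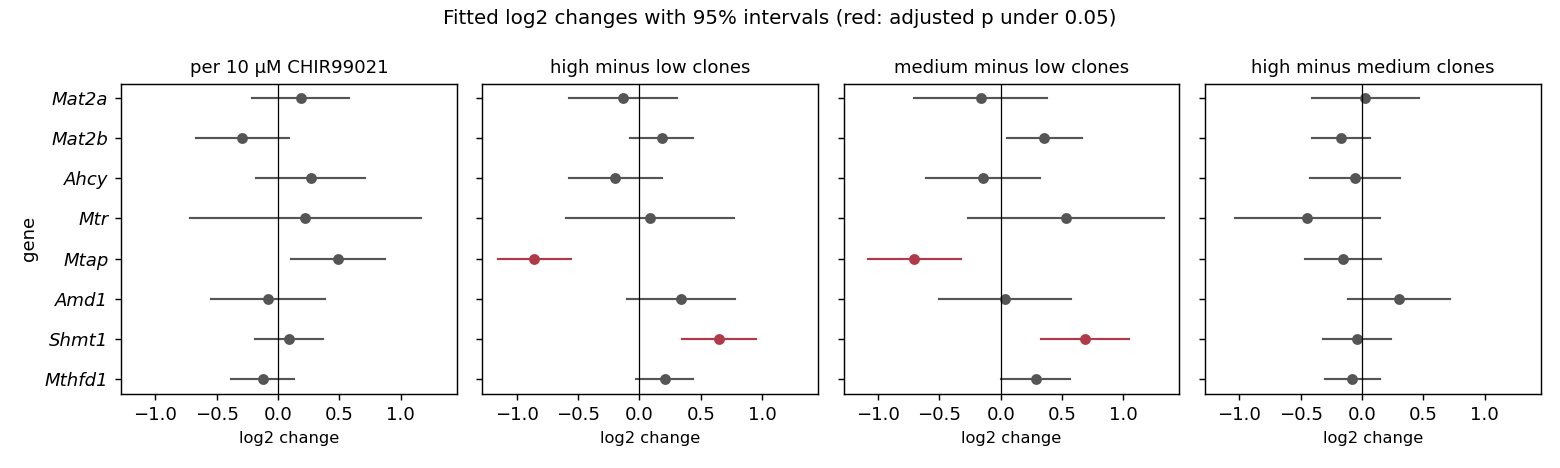
Fitted log2 change (x axis) with 95% interval (line) of the 8 enzymes (y axis) per 10 µM CHIR99021 over 10 unedited libraries and between MES categories over 15 clones, with red for an adjusted p under 0.05. Shmt1 and Mtap are red in both comparisons with low clones, and no gene is red for dose or between high and medium clones.

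Of the 64 pathway genes, 59 were tested between categories. In high against low clones, 16 were higher and 9 lower (42.4%, beside 29.8% of all genes), and these numbered 12 and 4 without T41S clone H8, with 5 lower without T41N clone D3. In the list for serine, glycine and threonine supply, 7 of 10 were higher and 1 lower, with a median log2 change of 0.726 beside 0.007 over all genes. Without T41S clone H8 these were 6 and 0. The 1 lower gene was also lost with no filter, by rank of MES and without S37A, S37C, S37F clone H2, S45C, S45F clone D9, T41N, T41I clone B9 or either T41A clone, and 2 were lower without T41I clone A6. Psat1, of serine synthesis, ran from 246 to 317 CPM in low and from 539 to 866 CPM in high clones, and Dmgdh from 0 to 8.07 and from 16.8 to 40.8 CPM (log2 change 3.61, SE 0.55, adjusted p = 2.89e-05). Dmgdh had only 0 to 4 counts in the low clones, so the size of its change is uncertain. In the folate list 5 of 18 were higher and 2 lower, and 3 and 1 without T41S clone H8. DESeq2, no filter, rank of MES, summed clones and leaving out S37A, S37C, S45P, T41N or any S45F or T41A clone also gave 1 lower gene. Aldh1l1, of cytosolic folate oxidation, was higher in high clones (1.94, SE 0.38), and Folr1 was lower, at 154 to 166 CPM in low and 44.8 to 79.9 CPM in high clones (−1.30, SE 0.15, adjusted p = 1.05e-06). In the methionine cycle list 3 of 11 were higher, among them Bhmt2, a homocysteine methyltransferase (3.32, SE 0.61), at few counts, and 2 were lower, among them Slc43a2, an amino acid carrier (−1.43, SE 0.40), whose call was lost without T41S clone H8 (adjusted p = 0.0833, the highest of 20 alternatives) or S45C clone D3 (0.0544). Bhmt2 was not called by rank of MES (0.0584, the highest of 20 alternatives). Without T41S clone H8 this list had 2 higher and 1 lower, by rank of MES 0 and 1, and with no filter 6 higher. In the polyamine and salvage list 1 of 14 was higher and 2 lower. Odc1 was at 93.8 to 142 CPM in low and 35.0 to 74.5 CPM in high clones (−1.33, SE 0.20, adjusted p = 2.12e-05). In the vitamin B12 list none of 6 was higher and 2 were lower. None was lower without T41S, without T41N or with no filter, and 1 without S45C, without T41A clone C1, by rank of MES or with clones summed.

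In medium against low clones, 10 pathway genes were higher and 2 lower (20.3%, beside 11%), with 5 higher without T41S clone H8 and 4 lower without S45C clone D3. The largest rises were in Mthfd2, a mitochondrial folate enzyme (99.8 to 242 CPM in medium and 54.8 to 72.4 CPM in low clones, log2 change 1.53, SE 0.27, adjusted p = 0.000912), Psat1 (1.32, SE 0.22) and Cbs, which makes cystathionine (1.30, SE 0.39). Cbs lost its call without T41S, T41N or S45F clone D9. The 2 lower genes were Folr1 (−0.96) and Ahcyl1, a relative of Ahcy (−0.87). In high against medium clones 3 were higher and 4 lower (11.9%, beside 4.51%). Dmgdh was higher (2.03, SE 0.40, adjusted p = 0.00693), as were Bhmt2 (1.87) and Aldh1l1 (1.15), and Slc43a2 (−1.36), Mthfd2l (−0.95) and Odc1 (−0.77) were lower. Dmgdh had 1 to 14 and Bhmt2 5 to 6 counts in the medium clones. Leaving out 1 clone at a time gave 0 to 3 higher and 0 to 7 lower genes. Over the 19 alternatives Dmgdh kept its call in 18, Bhmt2 in 16, Odc1 in 15, Aldh1l1 in 10, Slc43a2 in 8 and Mthfd2l in 7. With clones of a mutation summed, Aldh1l1, Slc43a2 and Mthfd2l lost theirs (adjusted p = 0.0521, 0.0658 and 0.0855), and over the alternatives their adjusted p reached 0.158, 0.174 and 0.265. None was higher without S45F clone C1, and 1 without S45F clone D9 or S45P. None was lower without S37A, S37C or S45F clone D9, and 7 without T41I clone A6. The lower genes numbered 1 without S37Y, S45P, T41A clone C1 or T41N, and 2 without S45F clone C1, T41A clone E6 or T41I clone B9.

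The genes whose pattern was most like that of Mat2a were sought by Pearson r of log2 (CPM + 1). Over all 25 libraries they were Sfpq (0.979), Srsf6 (0.977), Etf1 (0.973), Dhx9 (0.972) and Cdc73 (0.971), among 7090 genes whose mean was 20 CPM or more. Sfpq ran from 82.8 to 123 CPM in unedited cells and from 290 to 603 CPM in clones, and Srsf6, a splicing factor gene, from 150 to 198 and from 350 to 668 CPM. These r values rest largely on the gap between clones and unedited cells, which the libraries share. Over the 15 clones alone the most like were Hexim1 (0.913), Cycs (0.899), Pank3 (0.874), Rbm14 (0.866) and Aebp2 (0.865), among 7001 genes, and no gene was in both lists. Among the enzymes themselves r with Mat2a over the 15 clones was 0.46 for Amd1, 0.39 for Mtap, 0.32 for Mthfd1, 0.25 for Mat2b, −0.13 for Ahcy and −0.19 for Shmt1.

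Some members overlap other genes, and the strand setting of the counting is not given in the sources used here. Mat2a overlaps Particl on the opposite strand, which held 49 counts over all libraries, at most 6.53 CPM. The end of Shmt1 overlaps Smcr8 on the opposite strand, which held 1772 counts, at most 69.2 CPM, so reads there cannot be assigned with certainty. Shmt1 also overlaps Gm24945 (0 counts), Ahcy overlaps Gm45609 (3 counts) and Mtap overlaps Gm12607 (48 counts). Mthfd1 overlaps Gm47525, Gm47526 and Gm34868 on the opposite strand, for which no counts were given, so their levels are not known.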

How the data were processed

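Total RNA of E14 cells was made into 25 libraries by an adapted mcSCRB-seq method, read at transcript 3′ ends. The authors trimmed reads with Cutadapt, extracted molecular identifiers with UMI-tools, removed ribosomal reads with SortMeRNA, aligned with RNA STAR to mm10, deduplicated with UMI-tools and Picard MarkDuplicates, and counted with featureCounts (2.0.1). They deposited raw counts per gene with no normalization. The annotation release is not given in the sources used here. Symbols of 48058 of 48440 gene IDs were matched to a gene table, and coordinates are from GENCODE M21 (GRCm38).

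CPM were computed from total counts, and Wilson intervals and floors cover counting error only. Tests used edgeR 4.0.16 in R 4.3.3 (quasi-likelihood, two-sided, TMM factors, genes kept by filterByExpr at a minimum of 10 counts, Benjamini-Hochberg over all genes tested, threshold 0.05), with dose as a number over 10 unedited libraries or the 3 MES categories over 15 clones. Clones and unedited libraries were compared without a test, over genes with at least 10 counts in at least 10 libraries. Nothing in the labels says that the 2 libraries of a dose came from separate cultures, so p-values measure only the spread between these samples. All such pairs differed beyond sampling noise.

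Members and gene lists were chosen with earlier results of these data known. Named beside the 8 members are, per comparison, up to 3 pathway genes per direction with the largest change past the threshold, up to 4 per direction without overlap, and the 5 genes most like Mat2a. Psat1, named so for medium against low clones, is also given for high against low clones, outside this rule. Alternatives were RLE size factors, DESeq2 1.42.0, no filter, a replicate block, 10 against 0 µM with doses as a factor, a block for mitochondrial share (split at 0.8%), the rank of MES, clones of a mutation summed, TMM-scaled CPM, untreated controls alone, and leaving out each library. Replicate numbers did not pair the dose libraries. Scripts were tested on simulated data.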

Additional observations from a re-analysis of the deposited data

How the results depend on the processing

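A tested change was taken as kept if its direction and its side of the threshold stayed the same. A count of genes was taken as kept if it stayed of similar size. An untested ratio was taken as kept if it moved by less than the spread among clones. Of 2586 values under the alternatives, 2319 were kept in this sense, and 20 changed direction. Those that came from a test were far from the threshold. The rest were Mtap ratios between clones and unedited cells, which carry no test. The cause of a change under an alternative was not tested.

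High against medium clones gave 471 called genes, 739 with no filter and 240 with clones of a mutation summed, and high against low clones gave 3110, and 2008 by rank of MES, where Ahcy changed by 0.025 in place of −0.20. Against untreated unedited libraries alone, 2 members lay wholly above (Mat2a and Amd1), beside 2142 of 9842 genes without overlap. For Mat2a this follows from the criterion that chose it. For Amd1 the lowest clone was at 33.8 CPM and the highest untreated library at 33.2 CPM. With TMM-scaled CPM, Mtap had a log2 ratio of −0.039.

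Leaving out each library in turn gave these ranges. For dose, 0 to 1 members and 527 to 1325 genes were called, and the log2 change ran from −0.36 to 0.018 for Mat2b and from −0.16 to 0.025 for Amd1. For high against low clones, 1 to 3 members and 1653 to 3264 genes were called, lowest without T41S clone H8, and Mtr ran from −0.35 to 0.43. For medium against low clones, 0 to 3 members and 276 to 1433 genes were called, lowest without T41S clone H8, and the change ran from −0.40 to 0.020 for Mat2a, from −0.24 to 0.035 for Ahcy and from −0.021 to 0.17 for Amd1. For high against medium clones, 106 to 811 genes were called, lowest without S45F clone D9, and the change ran from −0.17 to 0.053 for Shmt1, from −0.21 to 0.058 for Ahcy and from −0.14 to 0.28 for Mat2a. Between clones and unedited cells, 1 to 3 members lay wholly above, beside 768 to 946 of 9842 genes without overlap. Mat2a was always among these members, as the criterion that chose it requires. The log2 ratio of Mtap ran from −0.10 to 0.21.

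A replicate block gave 0 called members and 1140 genes for dose, against 1256 without it. Deviations of libraries with the same replicate number correlated from −0.14 to 0.12 over 10 pairs, 2 of them over 0.1, so the numbers were not taken to pair the libraries. The clones carry no shared replicate numbers. Depth limits Mtr most, with 4 to 27 counts per library.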
